A study of Arabidopsis thaliana with 6 samples.

Results

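The regulators of seed maturation described here are 10 genes of Arabidopsis thaliana, chosen by name: the LAFL genes LEC1, ABI3, FUS3 and LEC2, the LEC1 relative L1L, the bZIP genes bZIP67, bZIP53 and EEL, and the repressor genes VAL1 and VAL2. All 10 were among the 16967 genes of the deposited RNA-seq table, and all 10 passed the filter on low values that left 16663 genes to test. The samples were seeds at 8 days after pollination, with 3 samples of Col-0, the common laboratory accession used as wild type, and 3 of tt7-7, a mutant of TT7 in the same accession. TT7 encodes flavonoid 3'-hydroxylase, which hydroxylates the B ring of flavonoids. The labels give neither the nature of the tt7-7 lesion nor whether samples of a genotype came from separate plants, so p-values measure the spread between these samples, which may be technical. The RNA came from seeds with all their tissues as far as the labels say, so less RNA per cell and fewer cells of a type cannot be told apart in any result below. The labels give the same age for all samples but no stage of development. A difference of genotype and a difference of stage therefore cannot be told apart either.

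Seed maturation is the phase in which the embryo stops dividing and fills with storage protein and oil. LEC1 and L1L are B subunits of the nuclear factor Y complex, which binds CCAAT boxes and needs A and C subunits. LEC2, FUS3 and ABI3 are activators with a B3 domain, a DNA-binding fold that recognises the RY element, and they act on storage protein and oleosin genes together with bZIP factors that bind ACGT cores. VAL1 and VAL2 also carry a B3 domain but repress, and they are known for shutting off the LAFL genes at germination together with Polycomb complexes.

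The RY element was looked for first, since it is the sequence that the activators and the repressors among these genes have in common. Windows of 300 bases, from 250 bases before to 50 bases after the gene start annotated by RefSeq in assembly TAIR10.1, were searched on both strands for CATGCA, whose reverse complement is TGCATG. Of 15 genes for storage and oil body proteins or seed oil synthesis, 14 held it, and of the 10 regulators 4 did, LEC1, FUS3, bZIP67 and VAL1. Among the promoters of the 16856 genes of the table with such a window, 8.34% held it, and 1.57% held it at 2 or more positions. Neighbouring SESA genes resemble each other, so their promoters are not independent. L1L and EEL, which had no match, share 116 and 817 bases with a gene on the same strand. Their windows may therefore include parts of those genes. The ACGT core was in 9 of the 15 storage promoters and 6 of the 10 regulator promoters, against 50% of all. A match is a string of letters and not a shown binding site. The windows below are those of 2 storage genes, SESA3 (2S albumin, chr4:13611546-13611845, plus strand) and OLEO1 (oleosin, chr4:12900180-12900479, plus strand), and of the 2 regulators with the most matches, VAL1 (chr2:12985228-12985527, minus strand) and bZIP67 (chr3:16081857-16082156, minus strand). They are shown because storage genes and VAL1 moved in opposite directions in the data. Capitals mark RY letters, and runs longer than 6 capitals are overlapping matches.
SESA3: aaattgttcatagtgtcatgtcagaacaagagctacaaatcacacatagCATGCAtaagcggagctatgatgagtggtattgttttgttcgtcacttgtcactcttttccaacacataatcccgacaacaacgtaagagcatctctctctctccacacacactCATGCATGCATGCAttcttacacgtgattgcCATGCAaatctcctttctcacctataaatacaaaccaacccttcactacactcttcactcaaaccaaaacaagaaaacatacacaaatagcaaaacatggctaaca
OLEO1: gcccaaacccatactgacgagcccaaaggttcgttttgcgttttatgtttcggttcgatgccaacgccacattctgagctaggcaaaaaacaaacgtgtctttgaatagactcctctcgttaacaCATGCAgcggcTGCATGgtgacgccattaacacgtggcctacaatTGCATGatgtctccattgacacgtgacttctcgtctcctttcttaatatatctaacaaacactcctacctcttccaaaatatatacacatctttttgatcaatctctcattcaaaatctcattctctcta
VAL1: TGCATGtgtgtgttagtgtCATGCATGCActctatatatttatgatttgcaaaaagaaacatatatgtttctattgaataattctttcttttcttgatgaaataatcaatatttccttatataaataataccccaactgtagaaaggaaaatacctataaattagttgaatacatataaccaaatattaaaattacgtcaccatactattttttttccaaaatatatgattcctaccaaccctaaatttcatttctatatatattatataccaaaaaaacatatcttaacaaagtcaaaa
bZIP67: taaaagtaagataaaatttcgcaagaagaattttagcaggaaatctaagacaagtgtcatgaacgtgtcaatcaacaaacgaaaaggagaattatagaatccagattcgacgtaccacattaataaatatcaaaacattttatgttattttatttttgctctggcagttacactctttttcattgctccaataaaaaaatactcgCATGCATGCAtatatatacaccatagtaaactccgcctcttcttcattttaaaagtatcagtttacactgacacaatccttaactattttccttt
The map of RY positions shows that SESA3 had matches beginning at 7 positions, 5 of them in 1 overlapping run from 87 to 79 bases before the gene start. OLEO1 had 3, at -125, -114 and -80. VAL1 had 4, at -250, -231, -229 and -227, and bZIP67 had 3 overlapping matches from -45 to -41. The 2 matches of LEC1 lay downstream of its start, beginning at base 10 of the transcript.

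**Figure D1:**
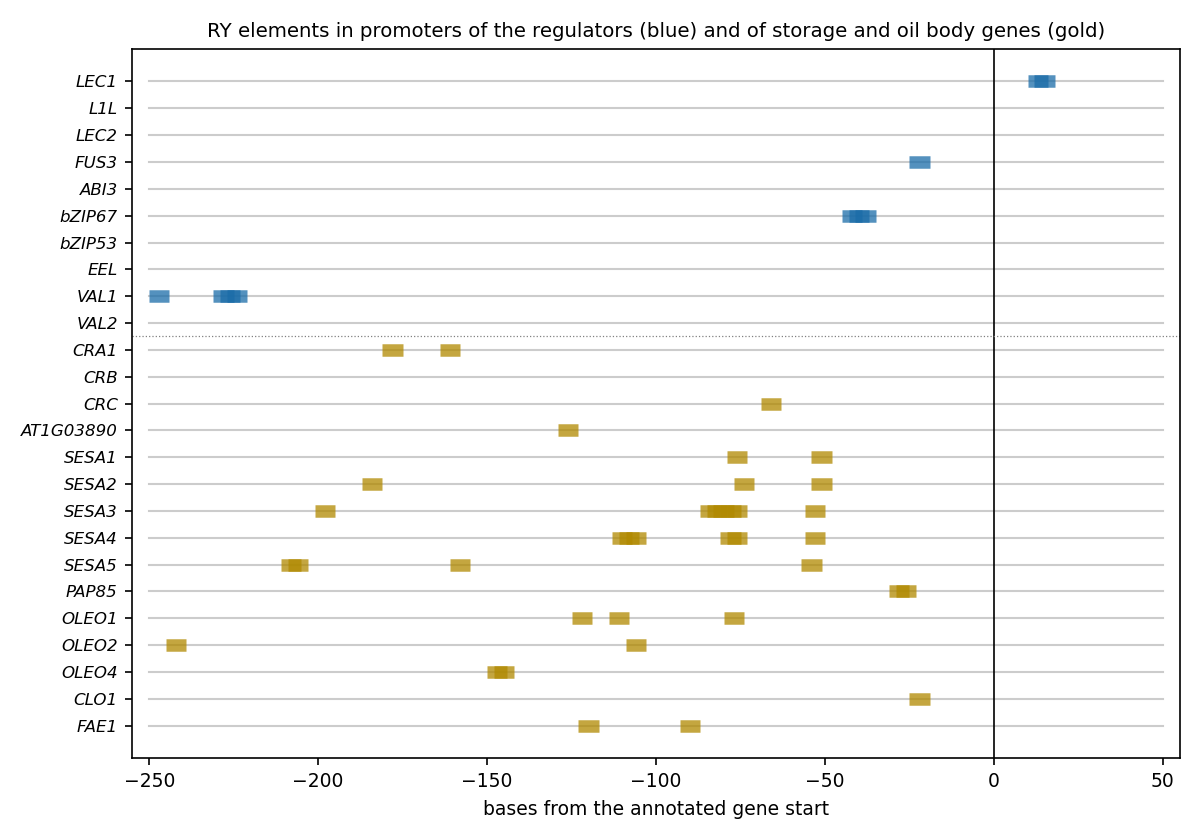
Position of RY elements (both strands) in bases from the annotated gene start, with each grey line marking 1 promoter window, regulators in blue and storage and oil body genes in gold. Of the regulators, 4 of 10 have a match, and of the storage and oil body genes, 14 of 15.

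Levels are given in RPKM, which are reads scaled by transcript length and by library size and can be set side by side between genes. Reads recovered from the RPKM steps gave library totals from 13677094 to 20547689, and each regulator rested on 127 to 2835 reads in each library. The mutated gene checked the labels: TT7 was at 240 to 499 RPKM in Col-0 and at 86.0 to 103 RPKM in tt7-7. The genotypes differed across the whole transcriptome. The 100 highest genes of each library held 24.2% to 34.4% of reads in Col-0 and 16.1% to 17.2% in tt7-7. The shares of genes called higher and lower depended on the scaling, as given further on. On the deposited scale, 51.1% of the tested genes were called higher in tt7-7 and 8.47% lower, at a Benjamini-Hochberg adjusted p of 0.05 with limma, a linear model with a moderated variance, on log2(RPKM + 1). The median over all tested genes was a log2 fold change of 0.44. It differed with transcript length, from 0.16 for the 4141 shortest genes (64 to 1220 bases) to 0.85 for the 4132 longest (2298 to 15700 bases). Every log2 fold change below is the mean log2(RPKM + 1) of tt7-7 less that of Col-0 and is read against that median.

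Marker genes for the tissues of seed and fruit are set beside the 51.1% of all tested genes called higher and the 8.47% called lower. The endosperm and seed coat counts were near these shares, but their sizes of change were not near the median. Median log2 fold changes were 1.11 for seed coat, 1.04 for endosperm, 0.81 for fruit wall and 0.19 for embryo markers, against 0.44 for all tested genes. Of 12 embryo markers 6 were measured, with 2 called higher and 1 lower, and their summed level was 488 to 681 RPKM in Col-0 and 257 to 448 RPKM in tt7-7, mostly from PDF1. Of 9 seed coat markers 8 were measured and 5 called higher, with sums of 559 to 844 RPKM in Col-0 and 1116 to 1448 RPKM in tt7-7. These sums came mostly from TT10 and BAN. BAN was at 39.8 to 127 RPKM in Col-0 and 285 to 427 RPKM in tt7-7. TT10, GL2 and MUM4 were not called, at log2 fold changes of 0.26, 0.85 and -0.01. Endosperm markers, 4 of 8 measured and 2 called higher, summed to 22.9 to 52.9 RPKM in Col-0 and 55.7 to 68.7 RPKM in tt7-7. Fruit wall markers, 5 of 6 measured and 4 called higher, summed to 60.9 to 70.4 RPKM in Col-0 and 125 to 127 RPKM in tt7-7, though SHP1 and SHP2 among them are also active in the seed coat. LEC1, L1L and the storage genes are known from embryo and endosperm, and VAL1 and VAL2 from many tissues. The part that tissue proportions had in the values of the regulators was not tested.

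In Col-0, L1L and LEC1 were the most abundant of the regulators, and the repressor genes were the least abundant. L1L had a mean of 128 ± 32.9 RPKM (SD, n = 3) and LEC1 of 113 ± 23.6 RPKM, above 95.1% and 94.4% of the genes in the table. EEL followed at 32.5 ± 10.2, FUS3 at 26.2 ± 3.86, bZIP53 at 15.8 ± 4.72 and ABI3 at 14.2 ± 2.85 RPKM. The lowest levels were those of bZIP67 at 8.92 ± 5.36, LEC2 at 7.34 ± 2.43, VAL2 at 5.33 ± 1.05 and VAL1 at 4.51 ± 1.51 RPKM. Gaps between neighbours in this order exceeded the sample ranges in 2 places, between LEC1 and EEL and between FUS3 and bZIP53, and all other neighbours overlapped. In tt7-7 the order was LEC1 at 91.8 ± 11.6, L1L at 55 ± 12.7, FUS3 at 47.4 ± 8.67, bZIP53 at 36.2 ± 12.4, EEL at 32.4 ± 9.70, ABI3 at 24.7 ± 7.51, VAL1 at 19.1 ± 2.46, LEC2 at 14.7 ± 1.19, VAL2 at 14.2 ± 1.20 and bZIP67 at 8.89 ± 3.11 RPKM. There LEC1 stood clear of L1L, VAL1 of LEC2, and VAL2 of bZIP67, while the other neighbours overlapped.

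**Figure D2:**
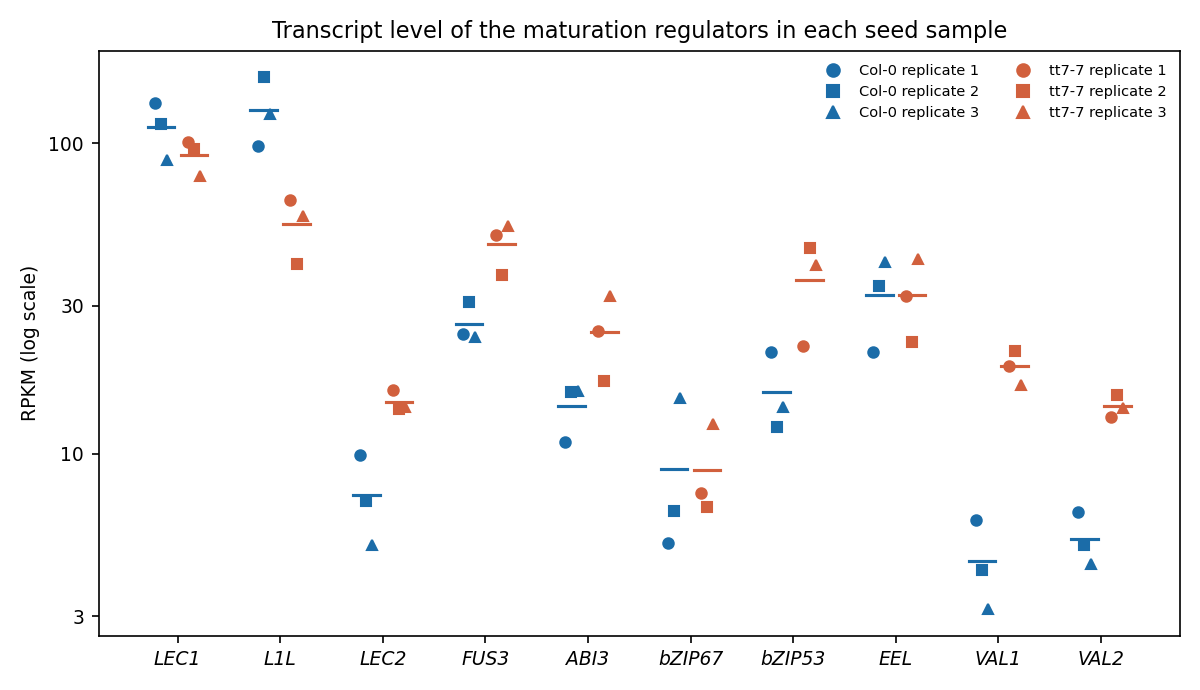
RPKM on a log scale for the 10 regulators, with 1 symbol per sample (blue Col-0, orange tt7-7, shape for the replicate number) and a bar at each group mean. VAL1 and VAL2 separate by genotype with wide gaps, L1L separates in the other direction, and LEC1, bZIP67 and EEL overlap.

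Of the 10 regulators 6 were called higher in tt7-7 (VAL1, VAL2, bZIP53, LEC2, FUS3 and ABI3), 1 was called lower (L1L) and 3 were not called (LEC1, bZIP67 and EEL). With 51.1% of all tested genes called higher and 8.47% lower, these shares were near the background and do not set the regulators apart as a group. Genotypes did not overlap for the 7 called genes, against 66.2% of all tested genes, of which 56.2% lay above and 9.97% below in tt7-7. Exact permutation tests of the group means gave a two-sided p of 0.1 for each of those 7, the smallest that 3 samples against 3 allow. Called under the deposited scale and under each of 4 other scalings were VAL1 and VAL2 as higher and L1L as lower, where 21.8% of all genes were called higher throughout and 4.78% lower throughout. The 4 scalings were median-ratio scaling, quantile normalization, scaling by a total that leaves out the 100 highest genes, and removal of the trend on transcript length. They called 26.3%, 26.8%, 40.9% and 53.7% of all genes higher, and 27.6%, 21.5%, 14.7% and 6.45% lower.

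The CCAAT-binding subunits did not move alike. LEC1, a master regulator of embryo identity (AT1G21970, chromosome 1, 7727577 to 7729649, 2 exons), was at 135, 115 and 88.4 RPKM in Col-0 and at 101, 95.9 and 78.7 RPKM in tt7-7, in the order of replicates 1 to 3 as in all such triplets here. The groups overlapped, and Col-0 replicate 3 lay below 2 of the tt7-7 samples. The log2 fold change was -0.28 with a 95% interval of -0.69 to 0.13 and a limma adjusted p of 0.213, and the interval includes 0. It was -0.80 and called lower under median-ratio scaling and -0.50 and called lower with scaling outside the 100 highest genes, and it was 0.03 with the length trend removed.

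L1L, the closest relative of LEC1 (AT5G47670, chromosome 5, 19314778 to 19316169), was at 98.0, 163 and 124 RPKM in Col-0 and at 65.6, 40.9 and 58.4 RPKM in tt7-7. Every tt7-7 sample lay below every Col-0 sample. The log2 fold change was -1.21 (SE 0.227, limma adjusted p 0.00177), and 1.74% of all tested genes had a lower one. Its range over 17 alternative settings was -1.72 to -0.97, and it was called in all 17. The annotated ends of L1L share 116 bases with AT5G47660 and 124 bases with TRM10 on the other strand, and the strandedness is not given in the sources used here. Those neighbours were at 1.96 to 4.65 and 11.3 to 16 RPKM in Col-0, and at 5.47 to 7.47 and 16.8 to 18.8 RPKM in tt7-7, below L1L in every sample.

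The ratio of LEC1 to L1L within a sample does not depend on library scaling. It was 1.38, 0.701 and 0.712 in Col-0 and 1.54, 2.34 and 1.35 in tt7-7. Col-0 replicate 1 lay just above tt7-7 replicate 3, so the groups overlapped, and the exact permutation p was 0.2 (0.25 adjusted over 10 such ratios).

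The B3 activators were all higher in tt7-7 on the deposited scale, to a similar degree. LEC2 (AT1G28300, chromosome 1, 9896867 to 9899876) was at 9.90, 7.05 and 5.07 RPKM in Col-0 and at 16, 13.9 and 14.1 RPKM in tt7-7. FUS3 (AT3G26790, chromosome 3, 9853828 to 9856212) was at 24.3, 30.7 and 23.7 RPKM in Col-0 and at 50.6, 37.6 and 54.0 RPKM in tt7-7. ABI3, which also links maturation to abscisic acid (AT3G24650, chromosome 3, 8997370 to 9001185), was at 10.9, 15.8 and 15.9 RPKM in Col-0 and at 24.8, 17.2 and 32.2 RPKM in tt7-7. No sample of any of the 3 genes crossed between the groups, but ABI3 in tt7-7 replicate 2 was close to Col-0 replicates 2 and 3.

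The log2 fold change was 0.95 for LEC2 (SE 0.205, limma adjusted p 0.00361), 0.82 for FUS3 (SE 0.173, adjusted p 0.00312) and 0.74 for ABI3 (SE 0.231, adjusted p 0.0217). These lay above 79.8%, 73.6% and 68.8% of all tested genes, and the 95% intervals were 0.49 to 1.41, 0.43 to 1.21 and 0.21 to 1.26, so those of FUS3 and ABI3 include the general shift of 0.44. With the length trend removed LEC2 was at 1.14 and FUS3 at 0.92, above the median of 0.46 for all genes in that fit, and ABI3 at 0.34 was below it. LEC2 lost its call under quantile normalization, at 0.43, and FUS3 under median-ratio scaling, at 0.32. ABI3 was called under none of the 4 other scalings, at 0.24 to 0.53, and it was also not called without Col-0 replicate 1 (0.57), tt7-7 replicate 1 (0.71) or tt7-7 replicate 3 (0.53).

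Of the bZIP genes bZIP53 was called and bZIP67 and EEL were not. bZIP53, whose product pairs with other bZIP proteins on storage promoters (AT3G62420, chromosome 3, 23091586 to 23092850, 1 exon), was at 21.2, 12.2 and 14.1 RPKM in Col-0 and at 22.3, 45.9 and 40.5 RPKM in tt7-7. All tt7-7 values lay above all Col-0 values, but tt7-7 replicate 1 exceeded Col-0 replicate 1 by little. The log2 fold change was 1.12 (SE 0.279, limma adjusted p 0.00748), and the call was lost at 0.62 with median-ratio scaling and at 0.76 with quantile normalization.

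bZIP67, which works with nuclear factor Y subunits such as L1L (AT3G44460, chromosome 3, 16079432 to 16081906), was at 5.15, 6.55 and 15.1 RPKM in Col-0 and at 7.45, 6.76 and 12.5 RPKM in tt7-7. In both groups replicate 3 stood above the other samples, and the groups overlapped throughout. EEL, known for binding the Em1 promoter in competition with ABI5 (AT2G41070, chromosome 2, 17129753 to 17132386), was at 21.3, 34.7 and 41.4 RPKM in Col-0 and at 32.2, 22.9 and 42.3 RPKM in tt7-7, again overlapping. The log2 fold change was 0.08 for bZIP67, with a 95% interval of -0.70 to 0.86, and 0.01 for EEL, with -0.61 to 0.62, and the limma adjusted p values were 0.854 and 0.983. The intervals leave room for changes of more than 1.5-fold in either direction for both. EEL shares 817 bases of its locus with AT2G41060 on the same strand, which was at 4.21 to 5.08 RPKM in Col-0 and 10.6 to 11.6 RPKM in tt7-7.

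The B3 repressors were both higher in tt7-7, VAL1 by more than any other of the 10 genes with all 6 samples on the deposited scale. VAL1 (AT2G30470, also named HSI2, chromosome 2, 12980428 to 12985277, 12 exons) was at 6.14, 4.23 and 3.16 RPKM in Col-0 and at 19.2, 21.5 and 16.6 RPKM in tt7-7. The ratio of the means was 4.24, and the lowest tt7-7 sample stood far above the highest Col-0 sample. VAL2 (AT4G32010, also named HSL1, chromosome 4, 15479379 to 15485354, 16 exons) was at 6.48, 5.08 and 4.42 RPKM in Col-0 and at 13.1, 15.5 and 14.0 RPKM in tt7-7, with a ratio of the means of 2.66. Both genes ran in the same order in Col-0, replicate 1 highest and replicate 3 lowest, and both were highest in tt7-7 replicate 2.

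The log2 fold change of VAL1 was 1.90 (SE 0.203, limma adjusted p 1.43e-04), above 98.4% of all tested genes, and that of VAL2 was 1.27 (SE 0.156, adjusted p 2.31e-04), above 91.1%. Both have long transcripts, 3402 and 3614 bases, and genes of that length were higher in tt7-7 in general. With the length trend removed the log2 fold changes were 1.41 and 0.74, and both were still called, but VAL2 was then below bZIP53 (1.33), LEC2 (1.14) and FUS3 (0.92). Over all alternatives VAL1 ranged from 1.37 to 2.12 and VAL2 from 0.74 to 1.42, and each was called in every alternative that tested it. ABI3 is about as long, at 3109 bases, and its change without the length trend was 0.34.

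**Figure D3:**
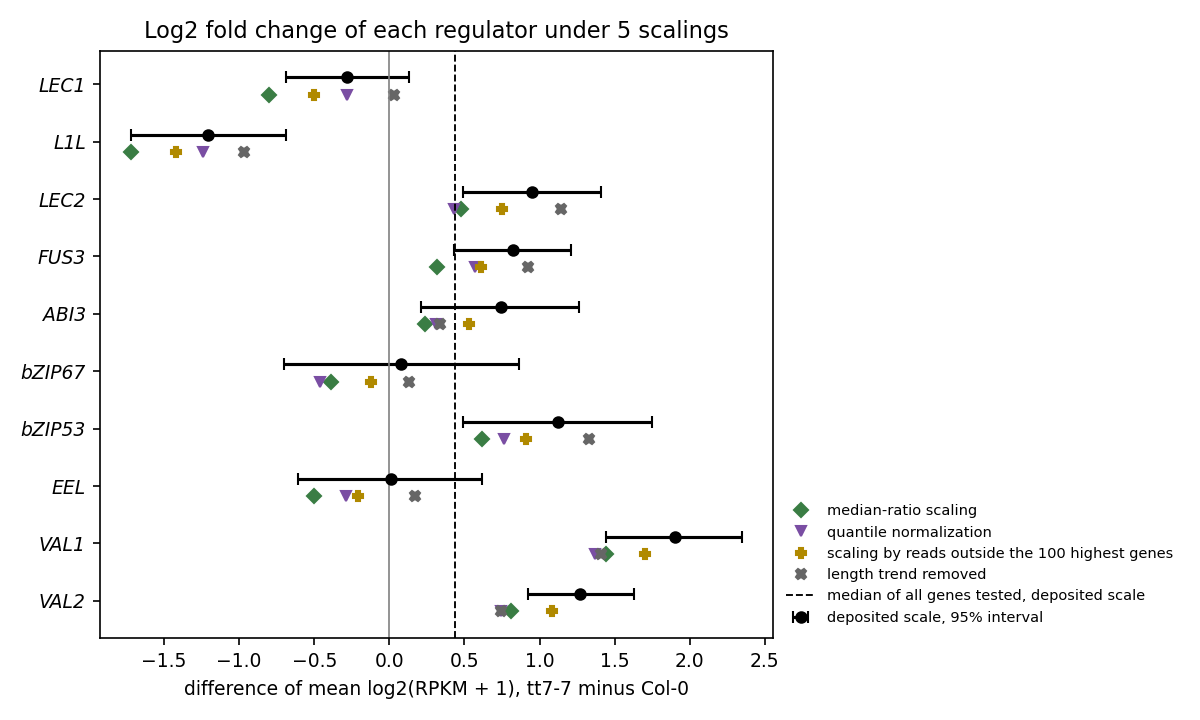
Log2 fold change, tt7-7 minus Col-0, for the 10 regulators, with black points and bars for the deposited scale and its 95% limma interval and coloured symbols for 4 other scalings. The dashed line is the median of all tested genes, 0.44. VAL1, VAL2 and L1L keep their side of 0 and their call throughout, whereas bZIP67 and EEL fall on both sides of 0.

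Set against VAL1, the activators FUS3 and LEC2 were lower in tt7-7 in every sample, although their own RPKM on the deposited scale were higher. The ratio of FUS3 to VAL1 was 3.96, 7.24 and 7.48 in Col-0 and 2.64, 1.74 and 3.25 in tt7-7, and that of LEC2 to VAL1 was 1.61, 1.67 and 1.60 in Col-0 and 0.837, 0.643 and 0.851 in tt7-7. Neither ratio overlapped between the groups, and the share of all genes for which this holds was not computed. Since 98.4% of all tested genes had a lower log2 fold change than VAL1, a fall relative to VAL1 is general. FUS3 and LEC2, at 0.82 and 0.95, fell less against VAL1 than a gene at the median of 0.44 would. LEC2 to VAL1 was nearly constant over the Col-0 samples, both genes being highest in replicate 1 and lowest in replicate 3. The ratio of ABI3 to VAL1 overlapped, at 1.78, 3.72 and 5.03 in Col-0 and 1.30, 0.797 and 1.94 in tt7-7. VAL1 was also higher relative to VAL2, with a ratio of VAL1 to VAL2 of 0.947, 0.834 and 0.715 in Col-0 and 1.47, 1.39 and 1.18 in tt7-7. On the log2((RPKM + 1) / (RPKM + 1)) scale the differences were -1.07 for FUS3 over VAL1, -0.95 for LEC2 over VAL1 and 0.62 for VAL1 over VAL2. Each of these 3 had an exact permutation p of 0.1, the smallest possible, and 0.167 adjusted over the 10 ratios. These ratios set shorter transcripts against a long one. With the length trend removed the log2 fold changes came closer together, at 1.14 for LEC2 and 0.92 for FUS3 beside 1.41 for VAL1.

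**Figure D4:**
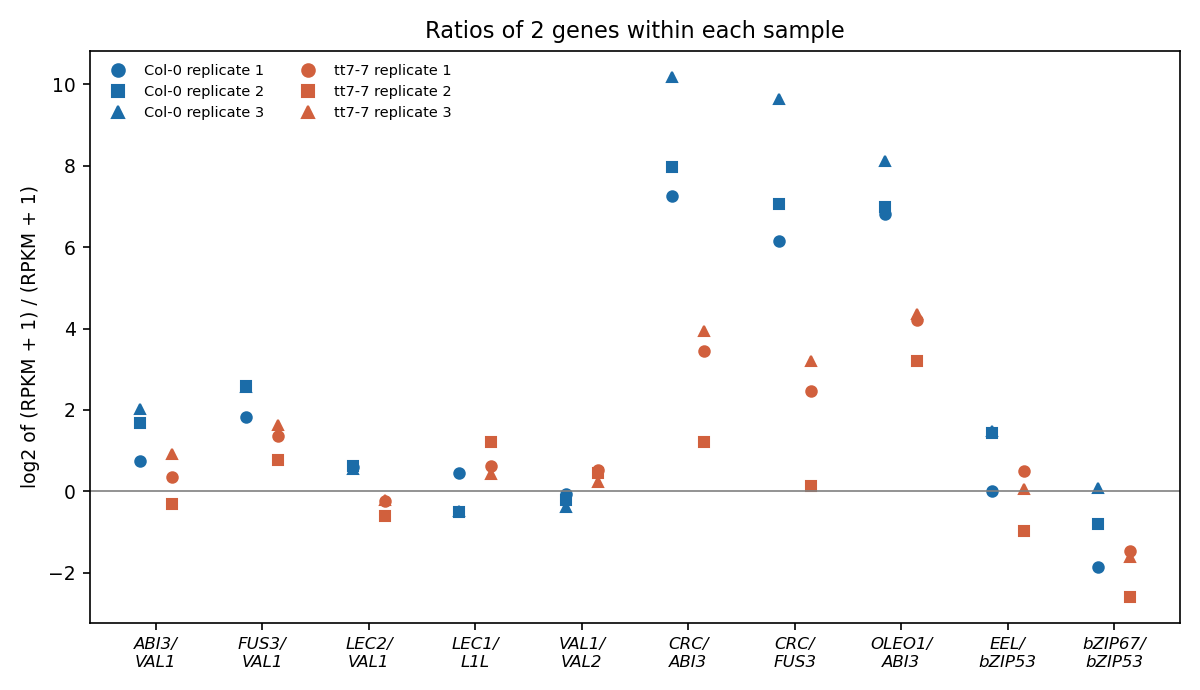
Log2 ratio of (RPKM + 1) for 10 pairs of genes within each sample, blue for Col-0, orange for tt7-7 and shape for the replicate number. Ratios of storage genes to activators (CRC and OLEO1) lie far apart between the groups, whereas EEL and bZIP67 over bZIP53 overlap.

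The storage and oil body genes, the classical targets of these activators, were lower in tt7-7. All 15 measured genes of a list of 16 were called lower and 0 higher, beside 8.47% of all tested genes called lower and 51.1% higher. The median log2 fold change was -4.02 against 0.44 for all tested genes, and all 15 stayed called lower in each of the 17 alternatives. CRC, a 12S globulin (AT4G28520), was at 1815, 4225 and 19709 RPKM in Col-0 and at 284, 41.4 and 507 RPKM in tt7-7. OLEO1, the main oil body coat protein, was at 1335, 2127 and 4707 RPKM in Col-0 and at 480, 168 and 675 RPKM in tt7-7. The groups were far apart, but the range within Col-0 was wide. Together the 15 genes held 2.04%, 4.33% and 14% of reads in Col-0 and 0.415%, 0.0984% and 0.632% in tt7-7. Among the 15 the largest fall was that of the 12S globulin gene AT1G03890, at -5.82, which ranged over the left-out samples from -6.85 (Col-0 replicate 1) to -4.69 (Col-0 replicate 3). CRC was at -4.86 and ranged from -5.64 without Col-0 replicate 1 to -3.81 without tt7-7 replicate 2. Ratios of storage genes to activators do not depend on library scaling, and that of CRC to ABI3 was 166, 268 and 1238 in Col-0 and 11.4, 2.41 and 15.8 in tt7-7. For OLEO1 the ratio to ABI3 was 122, 135 and 296 in Col-0 and 19.3, 9.76 and 21 in tt7-7.

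Within each genotype some regulators ran in the same order of samples as the summed RPKM of those 15 genes, which was 20483, 42740 and 131601 in Col-0 and 4141, 986 and 6292 in tt7-7. ABI3, bZIP67 and EEL were lowest where the sum was lowest and highest where it was highest in both groups, and VAL1 ran in the reverse order in both. For ABI3 the order of Col-0 replicates 2 and 3 rested on nearly equal values, 15.8 and 15.9 RPKM. Among all tested genes 1.61% had the same order in both groups and 11.7% the reverse order. This is a description of 3 samples in each group, made after the values were seen. Across genotypes the relation did not carry over for ABI3, bZIP67 or EEL. ABI3 was higher in every tt7-7 sample although the storage sum was lower in every tt7-7 sample. EEL spanned nearly the same RPKM in both genotypes, and bZIP67 overlapped between them. For VAL1 it did carry over, with RPKM falling from 21.5 to 3.16 as the sum rose through all 6 samples. Like VAL1, 56.2% of all tested genes lay higher in every tt7-7 sample than in every Col-0 sample. The share of all genes that also fell as the sum rose through all 6 samples was not computed.

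**Figure D5:**
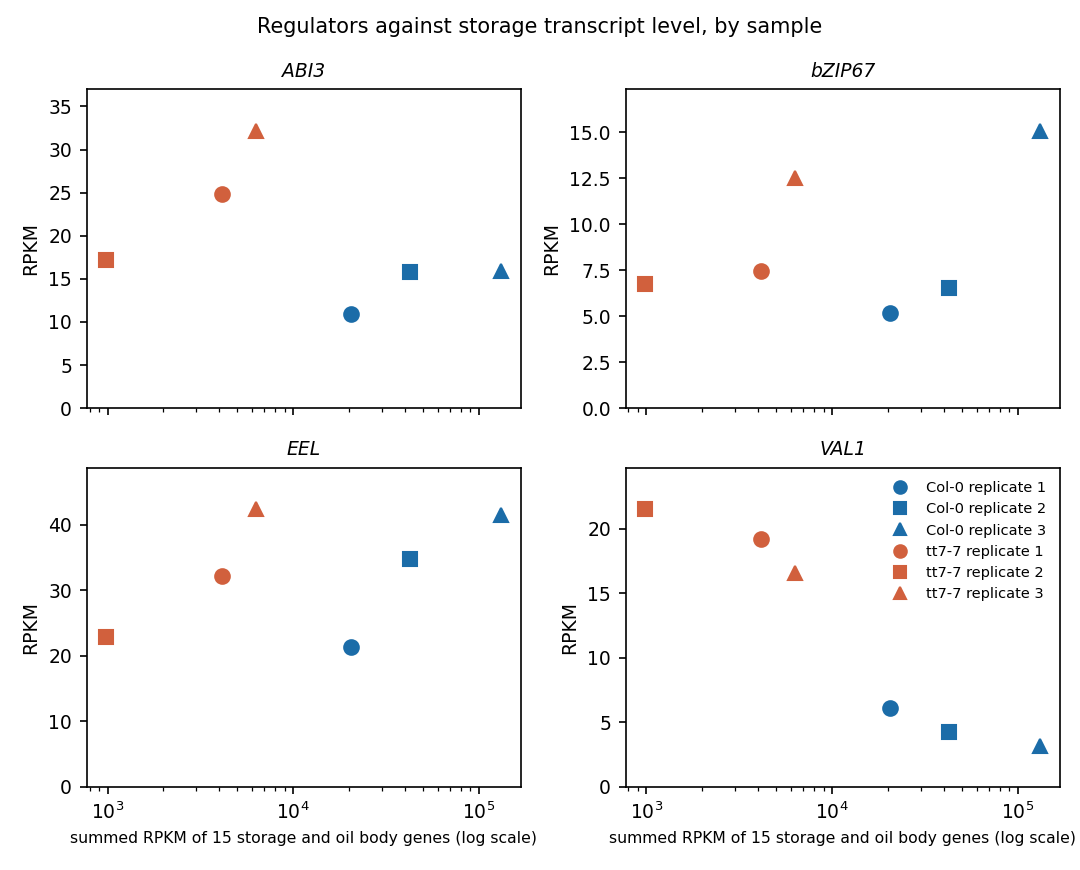
RPKM of ABI3, bZIP67, EEL and VAL1 against the summed RPKM of 15 storage and oil body genes (log scale), 1 symbol per sample. In each genotype ABI3, bZIP67 and EEL increase and VAL1 decreases along the axis, though ABI3 hardly differs between Col-0 replicates 2 and 3 (15.8 and 15.9 RPKM). For ABI3, bZIP67 and EEL the genotypes do not share a common trend, whereas VAL1 decreases across both.

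Late embryogenesis abundant and related genes, which the same factors switch on later in maturation, were called lower for 6 of 10 measured members and higher for 0, with a median of -1.10. Of all tested genes 8.47% were called lower and 51.1% higher, and the median over all was 0.44. LEA76 changed by -2.96, from 4.63, 25.2 and 224 RPKM in Col-0 to 3.21, 2.19 and 4.25 RPKM in tt7-7, and PER1, a seed peroxiredoxin, by -2.79. PER1 was at -2.15 without Col-0 replicate 3 and at -3.35 without Col-0 replicate 1, and it was called in all 17 alternatives. LEA76 was at -1.56 and -4.22 in the same order, and its call was lost in 6 of 17 alternatives. These were the fits without Col-0 replicate 3 or any 1 of the tt7-7 replicates, the fit with the 100 highest genes left out of the total, and voom. Without Col-0 replicate 3, 2 genes of the list were called lower.

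Among the possible partners of LEC1 and L1L few were called. Of 9 measured A and C subunits of nuclear factor Y, NF-YA1 and NF-YA9 were called higher and none of the 9 lower. Of all tested genes 51.1% were called higher and 8.47% lower. The median of the 9 was 0.30, below the 0.44 of all genes. NF-YA1 was at 10, 7.27 and 7.86 RPKM in Col-0 and at 18.8, 18.9 and 17.9 RPKM in tt7-7, a log2 fold change of 1.07. NF-YA9 was at 0.32 with an adjusted p of 0.0451 from limma, and it was not called in 11 of 17 alternatives, over which its log2 fold change ranged from -0.18 to 0.53. These 11 included leaving out any 1 sample other than Col-0 replicate 3.

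Of 11 other measured regulators of maturation 6 were called higher and 0 were called lower, and the median was 0.56, with 51.1% of all tested genes called higher. That share is near the background. The bZIP partners bZIP10 and bZIP25 were among them, at 0.95 and 0.85, as were AREB3 and ABI4, genes of abscisic acid signalling, at 0.85 and 0.56. ABI5, a bZIP gene of the same signalling that acts in seeds, overlapped between the groups at 1.97 to 2.56 RPKM in Col-0 and 2.41 to 3.40 RPKM in tt7-7, and it was not called (0.27, limma adjusted p 0.176). Also not called were AGL15, MYB115 and BBM, at 0.17 to 0.23. MYB118, an endosperm regulator of maturation, had a log2 fold change of 0.96, and AGL18, a MADS-box gene, of 0.95. MYB118 was at 50.1, 38.1 and 23.8 RPKM in Col-0 and at 74.1, 69.9 and 66.9 RPKM in tt7-7, and median-ratio scaling ended its call (0.45). WRI1, the activator of fatty acid synthesis genes downstream of LEC1 and LEC2, was at 104, 102 and 62.6 RPKM in Col-0 and at 110, 99.7 and 102 RPKM in tt7-7. These overlapped, and WRI1 was not called (0.24, limma adjusted p 0.316).

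Genes that repress maturation programmes alongside VAL1 and VAL2 were called higher without exception on the deposited scale, 20 of 20, with a median of 1.10. Of all tested genes 51.1% were called higher, and their median was 0.44 over all tested. Most act in chromatin, as Polycomb subunits, remodellers or histone deacetylases. The remodeller gene BRM was at 6.92, 5.90 and 4.58 RPKM in Col-0 and at 19.5, 25.5 and 17.8 RPKM in tt7-7, a log2 fold change of 1.69 that was 0.52 under its lowest alternative, and PKR2, a relative of the remodeller gene PKL, changed by 1.66. VAL3, a further VAL gene, was at 4.43 ± 1.28 RPKM in Col-0 and at 10.4 ± 0.931 RPKM in tt7-7 (SD, n = 3), higher by 1.09 on the log2 scale. The number called higher was 14 with median-ratio scaling, beside 26.3% of all genes, and 15 after quantile normalization, beside 26.8%. It was 17 when the 100 highest genes were left out of the total, beside 40.9%, and 20 with the length trend removed, beside 53.7%. None of these 4 scalings called any of the 20 lower.

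For 6 of the regulators, the genes with the most similar profile over the 6 samples were picked by the smallest root mean square difference of log2(RPKM + 1), each centred on its own mean. Closest to L1L were AT1G30515 (0.104), AT4G30880, annotated as a lipid transfer and 2S albumin superfamily protein (0.113), and the GDSL lipase gene AT1G71691 (0.127). AT4G30880 was at 381, 707 and 572 RPKM in Col-0 and at 278, 164 and 285 RPKM in tt7-7, with the peak in Col-0 replicate 2 and the trough in tt7-7 replicate 2 that L1L had. Closest to VAL1 were AT5G53100 (0.0348), AT2G18100 (0.0480) and NERD (0.0564). LEC1 was nearest to AT4G02100 (0.0346), AT3G12880 (0.0484) and the histone H2B gene HTB9 (0.0548). FUS3 was nearest to UMAMIT29, a transporter gene (0.0674), AT1G13970 (0.0767) and NRAMP2 (0.0999). ABI3 was nearest to bZIP70, UMAMIT23 and RLP43, and EEL to AT3G19500, AT3G61680 and AT3G45093, at 0.101 to 0.155. With 6 samples in 2 groups, such likeness describes these libraries only.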

How the data were processed

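RNA-seq was performed on total RNA of whole seeds from 6 samples, 3 of Col-0 and 3 of tt7-7, grouped by sample title. The authors deposited RPKM values with decimal commas, and each gene reached 2 RPKM in every sample of at least 1 group. The submitters' processing notes name cutadapt, FastQC, HISAT2, HTSeq, DESeq2 and build TAIR10, without roles. Annotation, strandedness and RNA selection: not given in the sources used here. Coordinates and promoter sequences are RefSeq's, of assembly TAIR10.1. The regulators and the gene lists were chosen with earlier results of these data known.

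Reads were recovered from the RPKM steps with the longest RefSeq transcript as length, and 16855 genes (99.3% of the table) gave whole numbers, to within 0.02, in each sample. Library totals ranged from 13677094 to 20547689 reads. These recovered reads served depth and the voom alternative only.

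The main test was limma 3.58.1 (R 4.3.3) applied to log2(RPKM + 1), the prior variance following the mean level (trend), for genes with a mean of at least 2 RPKM, without covariates, two-sided, with Benjamini-Hochberg adjustment over 16663 genes. The + 1 understates changes of low genes. The main test was also run on simulated data made for tt7-7 against Col-0 with 16553 genes, 200 of them changed 4-fold. It found 99% of these 200, and 4.81% of its calls there were false. The simulation gave every gene the same dispersion and left all other genes equal between the groups. Its rates need not hold for the deposited data. In the deposited data more genes were called, 51.1% higher and 8.47% lower. The share of false calls among those was not tested, and neither was the recovery of changes smaller than 4-fold. Group means of single genes and ratios were compared by exact permutation. Replicates differed beyond counting noise, with a chi-square per degree of freedom of 22.4 to 163, so none was counted as a duplicate. Named were all 10 regulators, up to 2 called genes in each direction per list by size of change, CRC, OLEO1, WRI1 and TT7, and the 3 most similar genes for 6 regulators. The mention of SESA3, VAL3, AREB3, ABI4, ABI5, AGL15, MYB115, BBM, bZIP10, bZIP25, BAN, TT10, GL2 and MUM4 was chosen after their values were seen. Motifs were searched with Python 3.11.15. As alternatives, the pseudocount was 0.1 or 0.5 RPKM, the filter was dropped or raised to 10 RPKM, and the others were 3 scalings, removal of the length trend, no variance trend, voom, the replicate block, and each sample left out.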

Additional observations from a re-analysis of the deposited data

How the results depend on the processing

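VAL1, VAL2 and L1L kept their direction and call in every alternative that tested them. Of all tested genes, those higher in tt7-7 numbered 8517, but 4389 under median-ratio scaling, 4468 under quantile normalization and 4351 with a mean of at least 10 RPKM. Those lower numbered 1412, but 4596, 3576 and, with scaling outside the 100 highest genes, 2446. The share of calls that were higher was 85.8% on the deposited scale, 48.8% under median-ratio scaling, 55.5% under quantile normalization and 73.6% outside the 100 highest genes, where the median of all genes was -0.03, 0.03 and 0.24 instead of 0.44. Of the regulators 3 were called higher with median-ratio scaling (VAL1, VAL2 and LEC2) and 3 with quantile normalization (VAL1, VAL2 and FUS3), and 2 were called lower under median-ratio scaling and outside the 100 highest genes. Signs changed for LEC1 with the length trend removed (0.03), for bZIP67 under median-ratio scaling (-0.39), quantile normalization (-0.46) and outside the 100 highest genes (-0.12), and for EEL in the same order (-0.50, -0.29 and -0.21). None of these 3 genes was called on the deposited scale. With single samples left out bZIP67 ranged from -0.20 to 0.49 and EEL from -0.26 to 0.23. The higher NF-Y partners numbered 1 instead of 2 under the 3 scalings, without the variance trend and with voom, 4 with the length trend removed, and 1 to 2 with single samples left out, and 1 was called lower under median-ratio scaling and quantile normalization. With quantile normalization 1 other maturation regulator was called lower. Of the repressors 12 were called higher with a mean of at least 10 RPKM, where fewer genes are tested. With single samples left out the late embryogenesis genes gave 2 to 7 lower calls and 0 to 1 higher. The cause of these shifts was not tested. Same-numbered samples had deviations from their group means correlated at 0.212, -0.190 and 0.477, and the other pairs ranged from -0.51 to 0.322. Deviations of 3 samples sum to 0 within a group, so these values cannot decide whether replicate numbers pair the samples. The replicate block gave 8587 higher and 1583 lower genes, and 6 higher regulators and 1 lower. Each regulator had at least 127 reads in every library, and each group had 3 samples. Which of depth, sample number and spread between samples limits the precision most was not tested.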
